A study of Homo sapiens with 36 samples.

Results

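The APOBEC3 cytidine deaminases and the uracil DNA glycosylase UNG were followed through drug treatment of leukaemic B cells. The genes were picked by symbol, namely APOBEC3A, APOBEC3B, APOBEC3C, APOBEC3D, APOBEC3F, APOBEC3G, APOBEC3H and UNG, which are 8 of the 37549 genes listed in the count table. RNA sequencing was done on 3 human B lymphoblastoid leukaemic cell lines, MEC1, JVM2 and EHEB. MEC1 carries mutated p53, whereas JVM2 and EHEB are described by the study as p53 wild-type. Each line was exposed to the solvent DMSO, to the purine analogue fludarabine at 50 µM, to the BTK inhibitor ibrutinib at 5 µM or to the PI3K delta inhibitor idelalisib at 10 µM. MEC1 cells were collected after 48 h, JVM2 cells after 72 h and EHEB cells after 96 h of exposure, and the part of the line in a result cannot be told apart from that of the time. Each of the 12 groups held 3 libraries, 36 in all, whose labels do not say that they came from separate cultures. The study's methods describe its results in general as coming from independent experiments, without naming the sequencing libraries, so the p-values measure the spread between these libraries, which may be partly technical. These lines stand for B-cell leukaemia as cultured cells without the surrounding tissue, and each is a single line.

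APOBEC3 enzymes convert cytosine to uracil in single-stranded DNA, and several of them restrict retroviruses and retrotransposons. They are encoded by a cluster of related genes that arose by duplication. UNG removes uracil from DNA and starts base excision repair at the sites that deaminases leave. APOBEC3B and APOBEC3A are known as sources of mutations in tumours.

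On the GRCh38 build with GENCODE 44 annotation, the 7 APOBEC3 genes lie on the plus strand of chromosome 22 in the order A, B, C, D, F, G, H. APOBEC3A (ENSG00000128383.14) starts the cluster at 38952741 and ends at 38963184. APOBEC3B (ENSG00000179750.16) spans 38982347 to 38992804, APOBEC3C (ENSG00000244509.4) spans 39014257 to 39020352 and APOBEC3D (ENSG00000243811.12) spans 39021113 to 39033277. APOBEC3F (ENSG00000128394.17) spans 39040604 to 39055972, APOBEC3G (ENSG00000239713.9) spans 39077067 to 39087743 and APOBEC3H (ENSG00000100298.16) spans 39097224 to 39104067. UNG (ENSG00000076248.12) lies on the plus strand of chromosome 12 from 109097597 to 109126725 and overlaps ACACB there.

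Reads can be shared between genes that arose by duplication. Of the 75-base words in annotated APOBEC3D transcripts, 81.9% also occur in another gene, and 80.1% occur in ENSG00000284554, a readthrough gene that overlaps APOBEC3C and APOBEC3D. The shared portion was 20% for APOBEC3B, 14.0% for APOBEC3A, 8.78% for APOBEC3F, 4.47% for APOBEC3G and 0.265% for APOBEC3C. APOBEC3H and UNG shared no such word with another gene. APOBEC3D counts are therefore uncertain, and APOBEC3A counts, which were few, could include reads of APOBEC3B.

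Promoter windows from 250 bases before to 50 bases after the annotated start are shown for UNG and APOBEC3H. These were the only genes of the group with a window in the promoter set that was read, so they were not picked by their response. The sequences are from RefSeq on GRCh38.p14, read on the plus strand, and the promoters of the other genes were not analysed here. UNG has a window at the start of the gene given above, which held none of the motifs searched (chr12:109097347-109097646), and another at a start further downstream, where some of its transcripts begin. The downstream window, the one printed, holds 1 match to an E2F-type motif, TTTGCCGC, in capitals, which begins 63 bases before that start. The APOBEC3H window has no match to any of the motifs searched on both strands, which were the E2F-type words TTTCCCGC, TTTGGCGC and TTTGCCGC, the interferon-type word GAAANNGAA and the STAT-type word TTCNNNGAA.
UNG, downstream start, chr12:109097922-109098221: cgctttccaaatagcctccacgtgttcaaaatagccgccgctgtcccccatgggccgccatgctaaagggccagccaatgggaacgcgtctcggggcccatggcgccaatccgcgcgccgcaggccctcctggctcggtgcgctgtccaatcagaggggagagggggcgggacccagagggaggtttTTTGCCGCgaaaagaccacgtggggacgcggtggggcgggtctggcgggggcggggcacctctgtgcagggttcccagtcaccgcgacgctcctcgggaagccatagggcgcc
APOBEC3H, chr22:39096994-39097293: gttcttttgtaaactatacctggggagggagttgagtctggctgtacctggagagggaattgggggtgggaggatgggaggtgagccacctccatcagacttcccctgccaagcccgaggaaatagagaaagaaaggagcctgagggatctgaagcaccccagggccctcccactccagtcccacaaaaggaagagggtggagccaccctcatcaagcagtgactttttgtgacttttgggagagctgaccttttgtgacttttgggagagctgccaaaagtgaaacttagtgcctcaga
Over 35116 promoter windows of the same length, 2.85% held at least 1 of the 3 E2F-type words, 0.607% held TTTGCCGC, 8.11% held GAAANNGAA and 7.66% held TTCNNNGAA. A match describes letters in a window and is no measure of binding.

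Library totals ranged from 26590705 to 53538925 counts with a median of 42114145.5, and every one of the 8 genes passed the filter on low counts in each line. The B cell markers MS4A1, CD79A, CD79B and PAX5 were detected in every line, and PAX5 was at 283.5 to 597.6 CPM (the count scaled to a common library size, so that levels can be compared between libraries). The 5 T and NK cell markers summed to 1.67 to 36.5 CPM, led by KLRD1, and CD3D was at 0 in MEC1 and JVM2. The 5 myeloid markers summed to 0.529 to 6.55 CPM, with S100A8 at 0 in MEC1 and LYZ and FCGR3A at 0 in EHEB. Ibrutinib and idelalisib libraries carry library numbers from a separate, higher series that holds no DMSO or fludarabine library, so series and drug cannot be told apart. Levels below are CPM scaled within each line by the trimmed mean of M values, and the 3 drugs of a line share its DMSO libraries. Levels per kilobase are the exception, scaled by the same method over all 36 libraries together. Scaling by library size alone moved the share of higher genes among all called for fludarabine from 48.4% to 74.1% (MEC1), 50.6% to 69.1% (JVM2) and 48.9% to 61.8% (EHEB). For ibrutinib it moved from 49.1% to 62.2% (JVM2) and 43.1% to 65.4% (EHEB), and for idelalisib from 48.8% to 59.5% and from 45.3% to 59.6%. Over fludarabine it moved from 49.5% to 36.3% with ibrutinib and from 47.8% to 27.9% with idelalisib in MEC1, and from 50.9% to 37.5% and from 50.3% to 38.3% in JVM2. The median of all genes shifted by over 0.1 on the log2 scale in 8 of the 15 drug comparisons, at most by -0.35 for idelalisib over fludarabine in MEC1, and by 0.25 for fludarabine over DMSO there. In bulk RNA, fewer cells of a type and less RNA per cell cannot be told apart.

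In untreated conditions the deaminases were expressed at very different levels. Per kilobase of annotated exon, APOBEC3C, a broadly expressed single-domain deaminase, had the highest DMSO level in every line, at 95.3 ± 1.17 CPM per kb (MEC1), 131 ± 8.19 (JVM2) and 216 ± 3.62 (EHEB; SD, n = 3). APOBEC3B, a nuclear deaminase, ranked 2 in MEC1 at 57.1 ± 2.78 CPM per kb, 3 in JVM2 at 26.5 ± 2.16 and 4 in EHEB at 15.6 ± 1.56. APOBEC3D and APOBEC3G lay between 19.4 and 31.8 CPM per kb, and in EHEB these neighbours, at 25.3 ± 0.788 and 24.8 ± 1.31, were within 1 SD of each other. APOBEC3F was at 10.2 to 12 CPM per kb, UNG at 6.20 to 16.5 and APOBEC3H at 1.96 to 8.04. In EHEB, APOBEC3H at 7.67 ± 0.615 CPM per kb and its neighbour UNG at 7.38 ± 0.107 lay within the APOBEC3H spread. APOBEC3A was lowest in every line, at 0.0667 to 1.12 CPM per kb. The length used joins the exons of all annotated transcripts of a gene, whether expressed here or not, and the order depends on it. In MEC1 with DMSO, APOBEC3B and APOBEC3G were at 112 and 115 CPM but at 57.1 and 20.6 CPM per kb.

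The lines themselves differed before any drug. In a fit over all 36 libraries, APOBEC3B was higher in MEC1 than in JVM2 by a log2 fold change of 1.12 ± 0.10 (SE) and than in EHEB by 1.88 ± 0.10 (edgeR quasi-likelihood test, adjusted p = 8.1e-11 and 1.26e-15). UNG was also higher in MEC1, with log2 fold changes of 1.42 ± 0.08 over JVM2 and 1.17 ± 0.08 over EHEB (edgeR adjusted p = 9.58e-16 and 6.21e-14). Between the other two lines APOBEC3B was lower in EHEB than in JVM2 (-0.76 ± 0.10) and UNG was higher (0.25 ± 0.07, edgeR adjusted p = 1.93e-07 and 0.00527). APOBEC3H, the most polymorphic member of the family, was lower in MEC1, with log2 fold changes of -2.03 ± 0.18 against JVM2 and -1.96 ± 0.18 against EHEB, while JVM2 and EHEB were separated by -0.06 ± 0.17 (95% interval -0.41 to 0.28, edgeR adjusted p = 0.788). APOBEC3C was lower in MEC1 than in JVM2 and in EHEB, at -0.45 ± 0.07 and -1.17 ± 0.07 on the log2 scale (edgeR adjusted p = 1.74e-06 and 6.55e-15). Of the 8 genes, 7 differed between MEC1 and JVM2, where 57.1% of all tested genes did, 6 between MEC1 and EHEB against 60.6% of all genes, and 7 between EHEB and JVM2 against 53.2%. The calls of APOBEC3F between MEC1 and EHEB (edgeR adjusted p = 0.0447) and of APOBEC3A between EHEB and JVM2 (edgeR adjusted p = 0.0484) were lost when single libraries were left out, the APOBEC3F call without MEC1 library 38 (edgeR adjusted p = 0.166) or the first EHEB library by number (edgeR adjusted p = 0.105), the APOBEC3A call without any one of JVM2 libraries 85, 86 and 87 or the first or the third EHEB library (edgeR adjusted p = 0.0505 to 0.176). The APOBEC3F call was lost too with library size scaling and with no filter, and the APOBEC3A call with limma-voom, with no filter and in a fit of the compared groups alone.

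Idelalisib lowered APOBEC3B, APOBEC3C, APOBEC3D and APOBEC3F in every line. Over the 24 gene and line combinations, 18 were lower and 0 higher with idelalisib (edgeR quasi-likelihood test, adjusted p under 0.05). DESeq2 and limma-voom likewise called 0 higher, and at an unadjusted p under 0.05 edgeR had 1 higher, APOBEC3G in MEC1. In MEC1, 5 of the 8 genes were lower, where 27.4% of all tested genes were lower and 27.6% higher. In JVM2, 6 of 8 were lower against 22.6% of all genes lower and 21.6% higher. In EHEB, 7 of 8 were lower against 18.2% lower and 15.1% higher. The 8 genes had median log2 fold changes of -0.49 (MEC1), -0.54 (JVM2) and -0.65 (EHEB), beside medians over all tested genes of 0.08, 0.03 and 0.01. Of the 5 T and NK cell markers 2, 2 and 4 were lower with idelalisib in MEC1, JVM2 and EHEB, and 1 was higher in MEC1. Of the 5 myeloid cell markers 1 was higher in MEC1 and 1 in JVM2. Of the 5 B cell markers 4, 2 and 1 were higher and 0 lower in MEC1, JVM2 and EHEB, also 0 lower with DESeq2 and limma-voom. The B cell marker CD79A was higher in MEC1 (log2 fold change 1.17) and at 0.16 in JVM2 and 0.10 in EHEB, neither of them called. The part of these marker changes in the results was not tested.

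APOBEC3C was lower in all 9 idelalisib libraries. In MEC1 its level was 263, 258 and 263 CPM with DMSO and 135.9, 146 and 149 CPM with idelalisib. In JVM2 it was 315, 340 and 346 CPM with DMSO and 238.2, 233.6 and 245.4 CPM with idelalisib. In EHEB it was 560, 568 and 554 CPM with DMSO and 305, 320 and 303 CPM with idelalisib. The groups did not overlap in any line, and the log2 fold changes were -0.86 ± 0.08, -0.48 ± 0.05 and -0.86 ± 0.05 (SE, edgeR adjusted p = 3.17e-06, 1.37e-05 and 5.42e-07).

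APOBEC3B showed its largest change in JVM2. There it was 44.9, 49.0 and 51.3 CPM with DMSO and 10.6, 11.4 and 9.66 CPM with idelalisib, a log2 fold change of -2.20 ± 0.11 (edgeR adjusted p = 1.25e-07). In MEC1 it was 111, 106 and 121 CPM with DMSO and 78.9, 76.0 and 81.5 CPM with idelalisib. In EHEB it was 31.5, 29.4 and 25.9 CPM with DMSO and 18.1, 20.4 and 18.9 CPM with idelalisib. The log2 fold changes in MEC1 and EHEB, -0.51 ± 0.08 and -0.60 ± 0.10, were smaller than in JVM2, and the idelalisib effect on APOBEC3B differed between the lines (edgeR F-test of the interaction, adjusted p = 3.85e-08).

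APOBEC3D and APOBEC3F, double-domain deaminases that restrict retroviruses, moved by similar amounts in each line. APOBEC3F log2 fold changes with idelalisib were -0.47 ± 0.07, -0.46 ± 0.05 and -0.49 ± 0.06 in the order MEC1, JVM2, EHEB (edgeR adjusted p = 0.000179, 3.26e-05 and 7.69e-05). Those of APOBEC3D were -0.44 ± 0.06, -0.61 ± 0.08 and -0.57 ± 0.06 (edgeR adjusted p = 9.57e-05, 0.000135 and 2.95e-05). No difference between the lines passed the test for either gene (edgeR interaction adjusted p = 0.68 for APOBEC3F and 0.729 for APOBEC3D), which does not show that the effects were equal, and with library size scaling that of APOBEC3F passed (edgeR adjusted p = 0.0423).

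APOBEC3G, the deaminase best known for restricting HIV without Vif, did not fall in MEC1. Its level there was 125, 114 and 105 CPM with DMSO and 130, 122 and 132.8 CPM with idelalisib, with overlapping groups and a log2 fold change of 0.16 ± 0.07 (edgeR adjusted p = 0.0794), which passed the threshold without DMSO library 37 (0.22, edgeR adjusted p = 0.0285), with the stricter filter (0.28) and with counts scaled by 3/8 (0.20). In JVM2 it was 158, 159 and 177 CPM with DMSO and 96.5, 102 and 101 CPM with idelalisib, and in EHEB 137, 131 and 124 CPM with DMSO and 77.9, 76.6 and 77.4 CPM with idelalisib. All idelalisib libraries of these lines were below all DMSO libraries, with log2 fold changes of -0.72 ± 0.06 and -0.76 ± 0.05 (edgeR adjusted p = 5.04e-06 and 1.45e-06). The idelalisib effect on APOBEC3G differed between the lines (edgeR interaction adjusted p = 1.99e-06).

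APOBEC3H fell with idelalisib in JVM2 from 8.61, 9.35 and 11.1 CPM to 6.19, 6.42 and 6.13 CPM and in EHEB from 10.3, 8.90 and 9.07 CPM to 5.78, 6.31 and 6.29 CPM (log2 fold changes -0.64 ± 0.16 and -0.62 ± 0.12, edgeR adjusted p = 0.00663 and 0.00181). In MEC1 it was at 2.03 to 2.85 CPM with DMSO and 1.80 to 3.10 CPM with idelalisib, and its log2 fold change of -0.11 had a 95% interval of -0.62 to 0.40. UNG was 89.9, 90.9 and 89.9 CPM with DMSO and 55.6, 58.3 and 57.0 CPM with idelalisib in MEC1, and 38.6, 37.5 and 38.3 CPM against 26.6, 23.8 and 21.4 CPM in EHEB. These are log2 fold changes of -0.66 ± 0.06 and -0.67 ± 0.08 (edgeR adjusted p = 2.21e-06 and 8.5e-05). In JVM2 UNG was 30.3, 32.8 and 31.6 CPM with DMSO and 29.2, 29.2 and 27.3 CPM with idelalisib, values that did not overlap but did not pass the test (log2 fold change -0.14 ± 0.08, edgeR adjusted p = 0.168).

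Over the 24 combinations with ibrutinib, 10 were lower and 1 higher. In MEC1, 6 of the 8 genes were lower, where 23.9% of all tested genes were lower and 23.7% higher, and the median of the 8 was -0.33 on the log2 scale. In JVM2, 2 were lower and 1 higher against 15% of all genes lower and 14.5% higher, and in EHEB 2 were lower and 0 higher against 11.2% lower and 8.5% higher, which in JVM2 and EHEB is not far from the background. The counts of 0 higher, in MEC1 and EHEB, were 0 as well with DESeq2, with limma-voom and at an unadjusted p under 0.05. With ibrutinib 2, 2 and 4 of the 5 T and NK cell markers were lower in MEC1, JVM2 and EHEB, and 1 of the 5 myeloid cell markers was higher in JVM2. Of the 5 B cell markers 5, 3 and 1 were higher and 0 lower, also 0 lower with DESeq2 and limma-voom. Among them CD79A was higher in MEC1 (log2 fold change 1.19) and at 0.05 and -0.13, not called, in the others. The part of these marker changes was not tested.

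With ibrutinib, APOBEC3B fell in MEC1 to 74.9, 68.1 and 78.0 CPM and in JVM2 to 29.4, 28.7 and 32.7 CPM (log2 fold changes -0.61 ± 0.08 and -0.68 ± 0.11, edgeR adjusted p = 8.73e-05 and 0.000819). In EHEB it was at 26.8, 28.0 and 30.5 CPM, overlapping DMSO, and the log2 fold change of -0.02 (95% interval -0.24 to 0.19) turned to 0.07 with library size scaling. APOBEC3C was lower in MEC1 at 186.1, 155 and 190.9 CPM and in EHEB at 455, 416 and 481 CPM (log2 fold changes -0.56 ± 0.08 and -0.31 ± 0.05, edgeR adjusted p = 0.000122 and 0.00156). In JVM2 APOBEC3C was at 327, 316 and 311 CPM, within the DMSO range or below it (log2 fold change -0.07, 95% interval -0.17 to 0.04).

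APOBEC3G was lower with ibrutinib in JVM2 and EHEB, with log2 fold changes of -0.34 ± 0.06 and -0.47 ± 0.05 (edgeR adjusted p = 0.00209 and 0.00013), and at 0.08 ± 0.07 in MEC1 (edgeR adjusted p = 0.394). UNG moved in opposite directions, down in MEC1 to 68.9, 65.2 and 72.9 CPM (log2 fold change -0.39 ± 0.06, edgeR adjusted p = 0.000186) and up in JVM2 to 42.1, 42.1 and 40 CPM (0.39 ± 0.08, edgeR adjusted p = 0.00387). The ibrutinib effect on UNG differed between the lines (edgeR interaction adjusted p = 1.02e-05). APOBEC3F was called lower in MEC1 only narrowly (-0.23 ± 0.07, edgeR adjusted p = 0.0192), and it no longer passed without DMSO library 37 or 39 or the second ibrutinib library by number (edgeR adjusted p = 0.0693, 0.0577 and 0.0708), or with library size scaling, the stricter filter or a fit of the compared groups alone (edgeR adjusted p = 0.106, 0.0575 and 0.067).

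**Figure D1:**
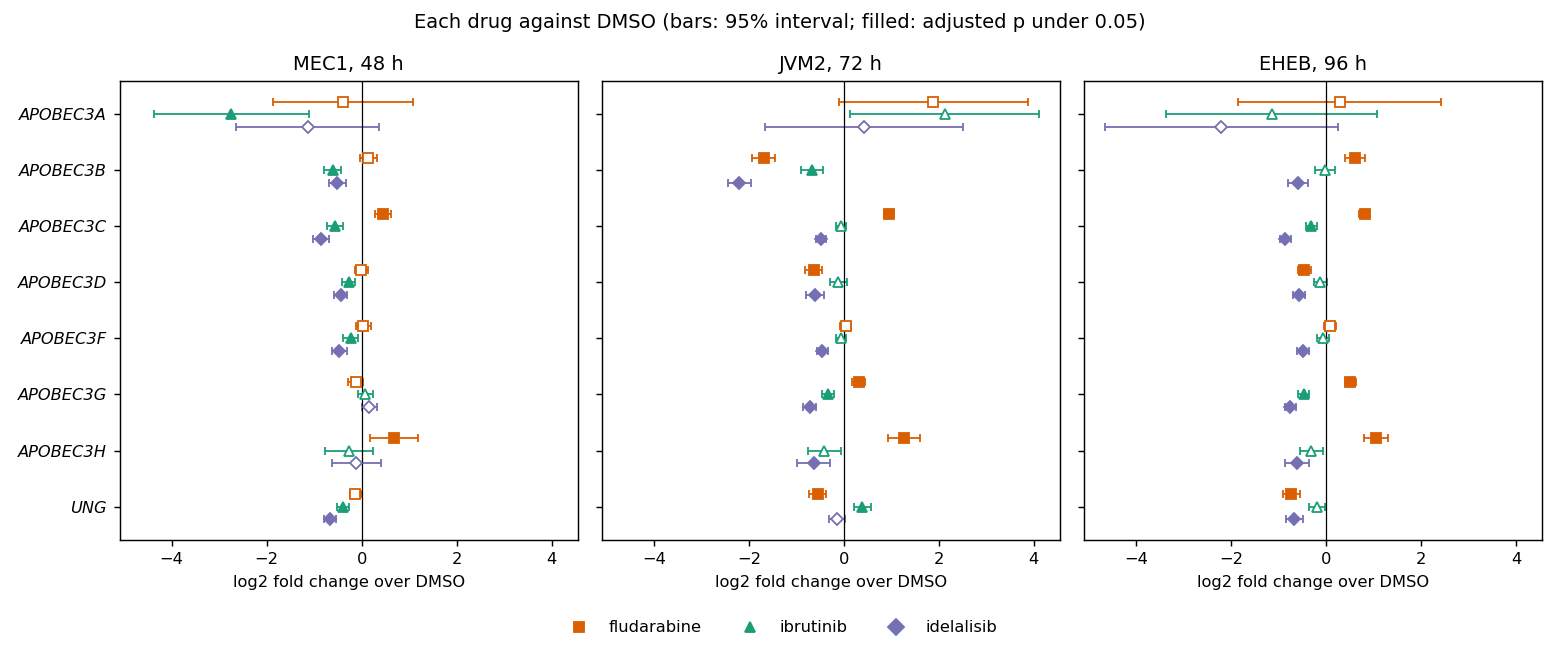
Log2 fold change of each gene over DMSO by line and drug (x axis; points are edgeR estimates, bars 95% intervals, filled symbols an adjusted p under 0.05). Idelalisib lies left of 0 for APOBEC3B, C, D and F in each line, and fludarabine lies right of 0 for APOBEC3C and APOBEC3H.

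Fludarabine raised APOBEC3C in every line and APOBEC3H in JVM2 and EHEB, while the APOBEC3H call in MEC1 was narrow, as described below. In MEC1, 2 of the 8 genes were higher and 0 lower, where 21.2% of all tested genes were higher and 22.7% lower. The count of higher genes there is not far from the background. DESeq2 and limma-voom also called 0 lower, and at an unadjusted p under 0.05 edgeR had 1, UNG. In JVM2, 3 were higher and 3 lower against 23.9% higher and 23.3% lower, and in EHEB 4 were higher and 2 lower against 18.4% higher and 19.2% lower. Of the 5 B cell markers 3 were lower and 1 higher with fludarabine in MEC1, 4 lower in JVM2 and 5 lower in EHEB. Among them CD79A was lower in JVM2 and EHEB (log2 fold changes -1.92 and -1.19) and at -0.11 in MEC1, which was not called. Of the 5 myeloid cell markers 2 were higher in MEC1 and 1 in JVM2, and of the 5 T and NK cell markers 3 were higher in MEC1, 2 lower in JVM2 and 3 lower and 1 higher in EHEB. The part of these changes was not tested either. APOBEC3C reached 374, 340 and 354 CPM in MEC1, 651, 667 and 616 CPM in JVM2 and 984, 978 and 982 CPM in EHEB, all above the DMSO libraries. Its log2 fold changes were 0.45 ± 0.08, 0.95 ± 0.05 and 0.81 ± 0.05 (edgeR adjusted p = 0.000676, 4.87e-08 and 4.78e-07), and they differed between the lines (edgeR interaction adjusted p = 9.4e-05). With library size scaling the MEC1 value was 0.70.

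APOBEC3H rose to 24.4, 25 and 20.8 CPM in JVM2 and to 18.7, 19.3 and 20.1 CPM in EHEB with fludarabine, log2 fold changes of 1.27 ± 0.15 and 1.04 ± 0.11 (edgeR adjusted p = 4.98e-05 and 2.89e-05). In MEC1 it was at 3.91, 4.85 and 3.48 CPM (0.68 ± 0.23, edgeR adjusted p = 0.032). That call was lost without DMSO library 37 or 38 or fludarabine library 46 or 47 (edgeR adjusted p = 0.0533, 0.117, 0.0594 and 0.126) and with no filter on low counts (edgeR adjusted p = 0.0553). APOBEC3G rose in JVM2 to 218, 197 and 199 CPM and in EHEB to 190.8, 183.4 and 183.95 CPM (log2 fold changes 0.31 ± 0.06 and 0.51 ± 0.05, the first of them 0.51 with library size scaling), and was at 110, 102 and 104 CPM in MEC1 (-0.13 ± 0.07, edgeR adjusted p = 0.181, and 0.12 with library size scaling).

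APOBEC3B took opposite directions in the lines with wild-type p53. Fludarabine lowered it in JVM2 to 15.3, 17.0 and 12.8 CPM (-1.69 ± 0.11, edgeR adjusted p = 3.69e-07) and raised it in EHEB to 47.4, 39.2 and 45.3 CPM (0.60 ± 0.10, edgeR adjusted p = 0.000513). MEC1 was at 124, 113 and 134.7 CPM (0.14 ± 0.08, edgeR adjusted p = 0.184), and this passed the threshold with library size scaling (0.39) and a stricter filter (0.24). The fludarabine effect on APOBEC3B differed between the lines (edgeR interaction adjusted p = 3.41e-08). APOBEC3D and UNG fell in JVM2 and EHEB, APOBEC3D by -0.63 ± 0.08 and -0.46 ± 0.06 and UNG by -0.55 ± 0.08 and -0.74 ± 0.08 on the log2 scale (edgeR adjusted p from 3.02e-05 to 0.000196, with UNG in JVM2 at -0.35 under library size scaling). In MEC1 the corresponding log2 fold changes were -0.01 and -0.13, neither past the threshold, and both became positive with library size scaling (0.24 and 0.12). APOBEC3F lay within 0.08 of DMSO on the log2 scale in each line and was not called, but with library size scaling it was called higher in each, at 0.29 (MEC1), 0.23 (JVM2) and 0.18 (EHEB).

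Set directly against fludarabine, both kinase inhibitors left APOBEC3C and APOBEC3H lower in every line, in 6 of 6 comparisons each. APOBEC3C log2 fold changes ran from -1.67 with idelalisib in EHEB to -1.01 with ibrutinib in MEC1 (edgeR adjusted p from 2.16e-09 to 1.0e-06), and those of APOBEC3H ran from -1.90 with idelalisib in JVM2 to -0.79 with idelalisib in MEC1 (edgeR adjusted p from 6.8e-07 to 0.012). The last of these was lost without fludarabine library 47 (edgeR adjusted p = 0.0531). With ibrutinib, 7 of 8 genes were lower and 1 higher in MEC1 (26% of all genes lower, 25.4% higher), 3 lower and 3 higher in JVM2 (20.9% lower, 21.7% higher) and 4 lower and 2 higher in EHEB (16.7% lower, 16.6% higher). With idelalisib, 6 were lower and 1 higher in MEC1 (29.3% lower, 26.9% higher), 5 lower and 1 higher in JVM2 (20.4% lower, 20.7% higher) and 5 lower and 0 higher in EHEB (22.5% lower, 20.3% higher), where DESeq2, limma-voom and the unadjusted p also gave 0 higher. A gene that moved one way with fludarabine and the other way with a kinase inhibitor is necessarily far apart here, since these comparisons draw on the same libraries as those over DMSO.

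APOBEC3G split the lines in this comparison. It was lower than with fludarabine in JVM2 (log2 fold changes -0.65 ± 0.06 with ibrutinib and -1.03 ± 0.06 with idelalisib) and in EHEB (-0.98 ± 0.05 and -1.27 ± 0.05). In MEC1 it was higher with both (0.21 ± 0.07 and 0.29 ± 0.07, edgeR adjusted p = 0.033 and 0.00517), but with library size scaling these became 0.03 and -0.06 and neither was called. The ibrutinib call was also lost without fludarabine library 47 or 48 or the third ibrutinib library (edgeR adjusted p = 0.0985, 0.0847 and 0.118), with no filter and in the joint fit (0.0974 and 0.112). UNG was higher than with fludarabine in JVM2 with both inhibitors (0.94 ± 0.08 and 0.40 ± 0.08) and in EHEB with ibrutinib (0.54 ± 0.08), and lower in MEC1 with both (-0.25 ± 0.06 and -0.53 ± 0.06, or -0.43 and -0.88 with library size scaling). APOBEC3B was higher with ibrutinib than with fludarabine in JVM2 (1.01 ± 0.11) and lower in the other 5 comparisons.

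**Figure D2:**
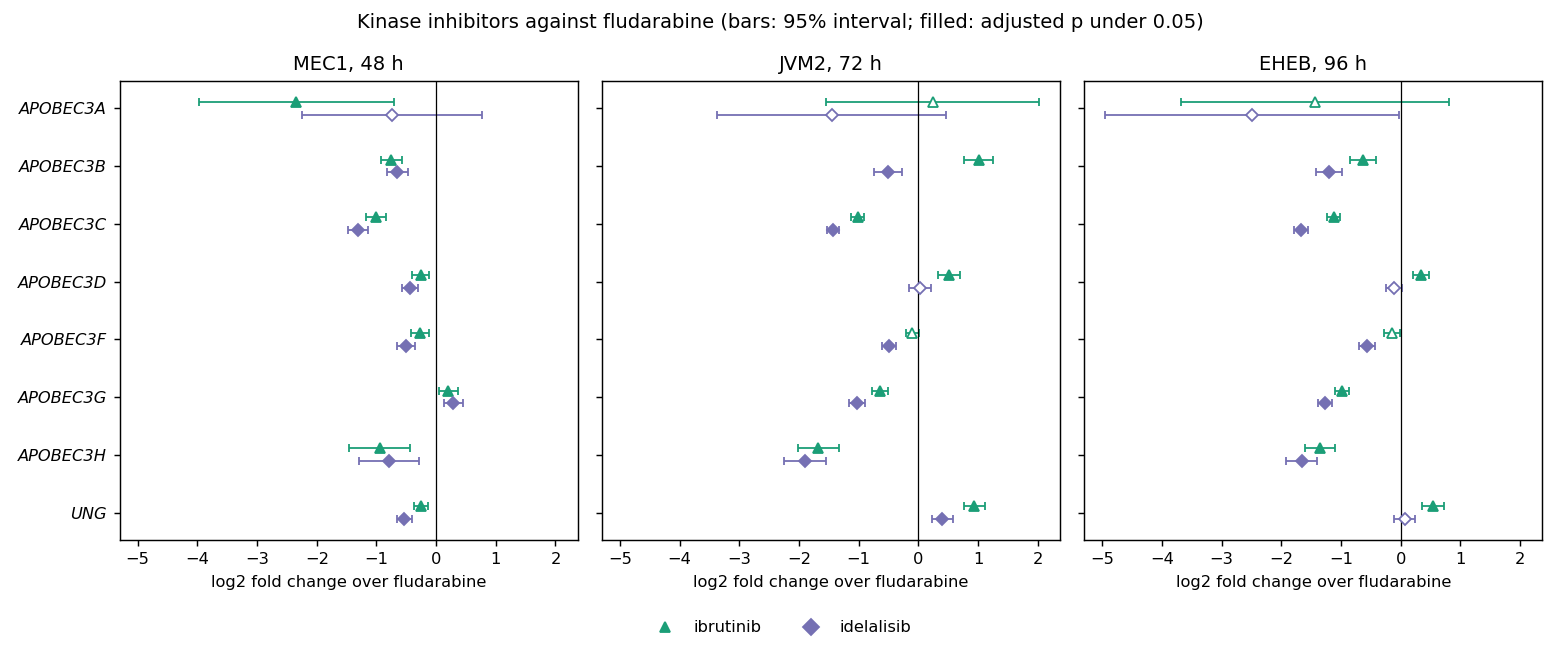
Log2 fold change of each gene with ibrutinib or idelalisib over fludarabine, by line (x axis; points are edgeR estimates, bars 95% intervals, filled symbols an adjusted p under 0.05). APOBEC3C and APOBEC3H lie left of 0 in each line. UNG is left of 0 in MEC1 and right of it in JVM2, and APOBEC3G in MEC1 is right of 0 here but at 0.03 and -0.06 with library size scaling.

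APOBEC3A, a highly active deaminase of myeloid cells, was near the limit of detection. Libraries held 0 to 152 of its counts. In MEC1 it was at 1.31, 1.45 and 4.28 CPM with DMSO and 0.400, 0.381 and 0.261 CPM with ibrutinib (log2 fold change -2.74 ± 0.74, edgeR adjusted p = 0.0103), which did not pass the threshold with limma-voom (adjusted p = 0.0563). The difference from fludarabine in MEC1 (-2.34 ± 0.74, edgeR adjusted p = 0.0204) was lost without fludarabine library 47 or the second or the third ibrutinib library (edgeR adjusted p = 0.0914, 0.0524 and 0.0663) and with limma-voom (adjusted p = 0.126). The edgeR fit called no other drug comparison of APOBEC3A, but that of idelalisib over fludarabine in EHEB (-2.49, adjusted p = 0.0986) passed with counts scaled by 3/8 (-2.54, edgeR adjusted p = 0.0448) and without the third idelalisib library (-4.11, edgeR adjusted p = 0.0453). A JVM2 DMSO library and 1 EHEB library each with ibrutinib and idelalisib held no count, and its differences from DMSO in JVM2 and EHEB did not pass the test (edgeR adjusted p from 0.106 to 0.855).

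The difference between lines was tested for each drug over the 18 libraries of its DMSO and drug groups. For fludarabine 5 of the 8 genes differed, where 39.1% of all tested genes did, for ibrutinib 5 against 33.6% and for idelalisib 4 against 45.7%. APOBEC3B, APOBEC3C, APOBEC3G and UNG differed for each drug. APOBEC3F was called for none (edgeR interaction adjusted p = 0.95, 0.251 and 0.68), but for idelalisib with library size scaling (0.0423). APOBEC3H was likewise called for none (edgeR interaction adjusted p = 0.123, 0.947 and 0.231), although the fludarabine difference of APOBEC3H passed without MEC1 DMSO library 38 (edgeR adjusted p = 0.0355) or MEC1 fludarabine library 47 (0.049).

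Genes of S phase and proliferation were read beside APOBEC3B and UNG, since both are known to follow the cell cycle. Of the 10 genes on this list, idelalisib lowered 9 (MEC1), 8 (JVM2) and 10 (EHEB) and raised 0, 1 and 0, with list medians of -1.23, -0.98 and -1.38 on the log2 scale. Fludarabine lowered 2, 8 and 3 and raised 2, 0 and 0, with medians of 0.00, -1.21 and -0.16. Ibrutinib lowered 9, 3 and 2 and raised 0, 4 and 0, with medians of -0.88, 0.29 and -0.13. Over all tested genes in the same order of lines, idelalisib lowered 27.4%, 22.6% and 18.2% and raised 27.6%, 21.6% and 15.1%. The shares with fludarabine were 22.7%, 23.3% and 19.2% lower and 21.2%, 23.9% and 18.4% higher. Those with ibrutinib were 23.9%, 15% and 11.2% lower and 23.7%, 14.5% and 8.5% higher. TOP2A, a topoisomerase of dividing cells, and CDT1, a replication licensing factor, were lower with both kinase inhibitors in each line, at log2 fold changes of -2.92 to -0.50 and -2.48 to -0.40. Both are named because they were called the same way in those comparisons. With fludarabine in MEC1, JVM2 and EHEB, TOP2A was at -0.04, -3.14 and -0.40 and CDT1 at -0.54, -2.33 and -0.15. The CDT1 call for ibrutinib in EHEB (edgeR adjusted p = 0.0406) was lost with library size scaling (0.0776) and no filter (0.064), and without the first or the third DMSO library (0.150 and 0.0923) or the first or the second ibrutinib library (0.104 and 0.149). The part of proliferation in the levels of APOBEC3B and UNG was not tested. Every count of 0 on this list was also 0 with DESeq2 and limma-voom, and at an unadjusted p under 0.05 it became 1 for genes higher with ibrutinib in EHEB only.

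The interferon response list was read beside APOBEC3G and the other restriction factors. Of its 10 genes, idelalisib raised 6 and lowered 1 in MEC1, raised 6 and lowered 1 in JVM2, and raised 0 and lowered 7 in EHEB. Fludarabine raised 5 and lowered 1, raised 7 and lowered 1, and raised 2 and lowered 7 in the same order, and ibrutinib raised 7 and lowered 0, raised 7 and lowered 0, and raised 1 and lowered 5. The shares over all tested genes are those given with the S phase list. DESeq2 and limma-voom gave the same counts of 0, and at an unadjusted p under 0.05 only 1 of them changed, to 1 lower with ibrutinib in MEC1. IFIT1, an interferon-induced RNA-binding protein, was at log2 fold changes of 3.63, 1.75 and -0.88 with idelalisib in MEC1, JVM2 and EHEB. APOBEC3G and APOBEC3H were lower with idelalisib in JVM2, where this list was mostly higher, and in EHEB, where it was mostly lower. Neither gene was called with idelalisib in MEC1, where the list was mostly higher. The part of the interferon response in the levels of these genes was not tested.

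UNG starts a repair pathway whose other genes were counted in the same way. Of 12 base excision repair genes, idelalisib lowered 6 and raised 3 in MEC1, lowered 8 and raised 0 in JVM2, and lowered 5 and raised 0 in EHEB. LIG1, the replicative DNA ligase, was lower with idelalisib in each line at -1.49, -1.08 and -0.83 on the log2 scale, and FEN1, the flap endonuclease, at -1.36, -0.37 and -1.30. With fludarabine 4 were lower and 2 higher in MEC1, 3 lower and 5 higher in JVM2, and 2 lower and 4 higher in EHEB. PCNA, the replication clamp, which is on this list, was at -0.02, 2.29 and 1.76 on the log2 scale in that order. Ibrutinib lowered 7, 2 and 1 and raised 1, 2 and 0. With fludarabine in MEC1, 22.7% of all tested genes were lower and 21.2% higher, and the other shares are given with the S phase list. UNG was lower and PCNA higher with fludarabine in JVM2 and EHEB.

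Further lists were counted in the order MEC1, JVM2, EHEB. Over all tested genes, idelalisib lowered 27.4%, 22.6% and 18.2% and raised 27.6%, 21.6% and 15.1% in that order. Of 8 mismatch repair and translesion genes, idelalisib lowered 5, 3 and 4 and raised 1, 2 and 1. Of 6 genes of the dUTP and thymidylate pool, it lowered 2, 2 and 4 and raised 2, 1 and 0, and thymidine kinase TK1 was at -1.12, -1.5 and -2.05 on the log2 scale. Of 8 deaminase cofactor and single-stranded DNA binding genes it lowered 5, 3 and 3 and raised 2, 0 and 0. HMCES, which shields abasic sites in single-stranded DNA, was lower with both kinase inhibitors in each line (log2 fold changes -1.42 to -0.30). With fludarabine HMCES was at 0.37 (MEC1), -0.55 (JVM2) and -0.45 (EHEB). The -1.42 is from MEC1, where the DMSO level of HMCES was lower than in JVM2 (log2 fold change -4.82). Its idelalisib calls in JVM2 and EHEB were lost with library size scaling (edgeR adjusted p = 0.067 and 0.0719) and in the joint fit (0.195 and 0.201), and in EHEB also without the first or the third DMSO library (0.103 and 0.0848) or the second or the third idelalisib library (0.0832 and 0.0753). On the repair, pool and cofactor lists the counts of 0 given here were also 0 with DESeq2 and limma-voom, and at an unadjusted p under 0.05 only 1 of them changed, to 1 cofactor gene higher with idelalisib in JVM2.

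**Figure D3:**
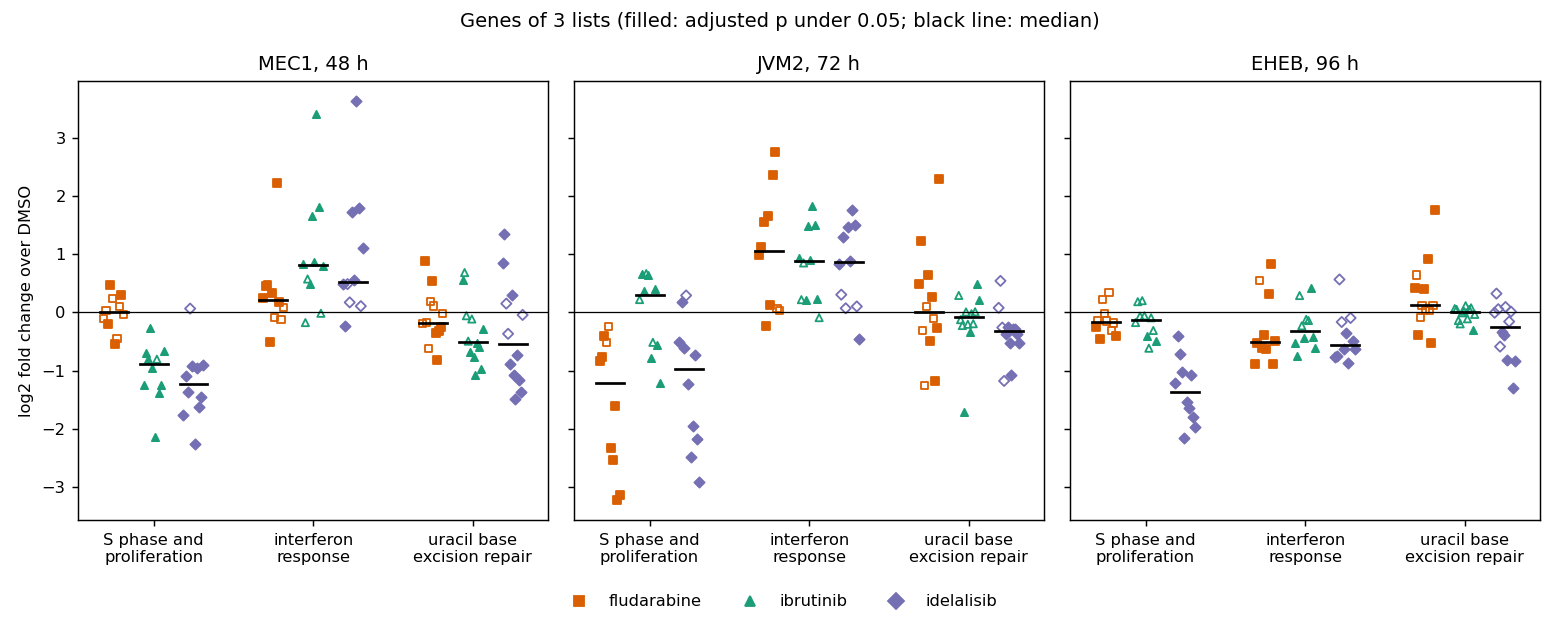
Log2 fold change over DMSO of the genes on 3 lists, by line and drug (points are genes, filled where the adjusted p was under 0.05, black lines are list medians). The S phase list is low with idelalisib in each line, with ibrutinib in MEC1 and with fludarabine in JVM2, and the interferon list is mostly above 0 in MEC1 and JVM2 and mostly below 0 in EHEB.

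Likeness of pattern was described by Pearson's r over the 36 libraries after centring each line, across 15173 genes. These libraries share lines, drugs and library series, and the coefficients are descriptive. APOBEC3B was most like CDCA5 (r = 0.945) and CKAP2L (r = 0.931). APOBEC3D was most like ZNF367 (r = 0.908) and TPX2 (r = 0.905), and UNG most like NUDT21 (r = 0.907) and WNT10A (r = 0.890). APOBEC3C was most like MTA2 (r = 0.971), APOBEC3F most like MDH2 (r = 0.940), APOBEC3G most like ID3 (r = 0.945) and APOBEC3H most like EI24 (r = 0.943). APOBEC3A had no gene above 0.663 (PEX5L). Among the 8 genes themselves the highest coefficients were between APOBEC3C and APOBEC3H (0.890), APOBEC3C and APOBEC3F (0.853) and APOBEC3D and UNG (0.850), and the lowest was between APOBEC3H and UNG (-0.310).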

How the data were processed

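Total RNA was depleted of ribosomal RNA and sequenced in 36 libraries. The authors trimmed reads with Trimmomatic, aligned them to hg38 with HISAT2 2.1 and quantified genes with StringTie 1.3.4 on an Ensembl annotation, and the authors deposited these estimated counts per gene as whole numbers, which were used as deposited. The annotation release and the strand setting were not stated in what was read. Of values from 3 to 40, 51.4% fell on steps of 8/3 rounded up, where 39.5% of whole numbers are such steps, so refits with counts scaled by 3/8 were added after seeing the data. A row without a symbol (0.00384% of counts) was left out.

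Each line was fitted with edgeR 4.0.16 (quasi-likelihood, TMM, filterByExpr with a minimum count of 10 and minimum total of 15) on its 12 libraries, giving 17516, 17508 and 17748 tested genes in MEC1, JVM2 and EHEB, with Benjamini-Hochberg adjustment over all of them and a threshold of 0.05. DMSO levels between lines used a joint fit, and line by drug differences used an F-test over 18 libraries. Intervals are 95%. Replicates differed by more than counting noise in all 36 pairs (chi-square per degree of freedom 24.9 to 48.9). Scripts were tested on simulated data. Alternatives were DESeq2, limma-voom, library size scaling, no filter, a filter at a mean of 5 CPM, a fit of the compared groups alone, the joint fit, and each library left out. Likeness used log2(CPM + 0.5).

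The genes, lists and tests were chosen with earlier results of these data known. Named genes of the lists were those called the same way in all 6 kinase inhibitor comparisons over DMSO; IFIT1, LIG1, FEN1, PCNA and TK1 were added after their values were seen. NKG7 (log2 fold change -2.96 to -1.45) also met that rule, though its ibrutinib calls in JVM2 and EHEB were lost without any one of several libraries (edgeR adjusted p = 0.0532 to 0.0713), and some genes that the rule or the lists hold are not reported here. APOBEC3D shares most of its transcript words with a readthrough gene, and protein sequences were not used here.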

Additional observations from a re-analysis of the deposited data

Results flagged for a closer look

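Effects of the same drug that differed between the 3 lines were singled out by a test of the difference itself (edgeR F-test of the line by drug term, adjusted over all genes). For fludarabine these were APOBEC3B (adjusted p = 3.41e-08), APOBEC3C (adjusted p = 9.4e-05), UNG (adjusted p = 0.000101), APOBEC3D (adjusted p = 0.000257) and APOBEC3G (adjusted p = 0.00074). APOBEC3B fell in JVM2 and rose in EHEB, while APOBEC3C rose in every line and by the least in MEC1. For ibrutinib, the edgeR test gave UNG (adjusted p = 1.02e-05), APOBEC3B (adjusted p = 0.00168), APOBEC3G (adjusted p = 0.00257), APOBEC3C (adjusted p = 0.00466) and APOBEC3A (adjusted p = 0.0303). UNG was lower in MEC1 and higher in JVM2. The APOBEC3A difference was lost when any one of 6 libraries was left out, namely MEC1 DMSO library 39, the second or the third MEC1 ibrutinib library, JVM2 DMSO library 85 or 87, or the third JVM2 ibrutinib library (edgeR adjusted p = 0.0738, 0.053, 0.0582, 0.0527, 0.0571 and 0.0894). For idelalisib, the edgeR test gave APOBEC3B (adjusted p = 3.85e-08), APOBEC3G (adjusted p = 1.99e-06), APOBEC3C (adjusted p = 0.000107) and UNG (adjusted p = 0.00017). APOBEC3G was lower in JVM2 and EHEB and was not called in MEC1. Over all tested genes, the same test called 39.1% for fludarabine, 33.6% for ibrutinib and 45.7% for idelalisib. Line, p53 status and exposure time cannot be told apart in these differences. Groups of 3 libraries were too small for a check of single outlying libraries.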

How the results depend on the processing

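No paired analysis was possible because the groups compared share no replicate number: every library has a number of its own. Of the counts of genes called per comparison, 1 moved by over 1.5 times, that of fludarabine over DMSO in MEC1, which was 2 of 8 and became 5 with library size scaling and 1 with no filter, and ranged from 1 to 2 when single libraries were left out. Among alternatives other than leaving out a library, 1191 values for single genes kept their direction and their side of the threshold, 14 lost a call, 20 gained one and 14 changed sign. With a library left out, 1242 were kept, 27 lost a call, 9 gained one and 18 changed sign. The only called value that changed sign was APOBEC3G for idelalisib over fludarabine in MEC1 (-0.0603 with library size scaling). The other sign changes were of values not called. With library size scaling these were APOBEC3D (0.24), APOBEC3G (0.12) and UNG (0.12) for fludarabine in MEC1, APOBEC3C (0.0089) and APOBEC3F (0.013) for ibrutinib in JVM2, APOBEC3B (0.075) and APOBEC3F (0.031) for ibrutinib in EHEB and APOBEC3D (-0.072) for idelalisib over fludarabine in JVM2. APOBEC3D with fludarabine in MEC1 was also positive with DESeq2 (0.00644), counts scaled by 3/8 (0.020), the joint fit (0.025) and the stricter filter (0.090), and APOBEC3A for ibrutinib over fludarabine in JVM2 was negative with limma-voom (-0.097). With single libraries left out, APOBEC3A ranged from -1.01 to 0.35 for fludarabine in MEC1, -0.058 to 0.84 for fludarabine in EHEB, -0.29 to 1.05 for idelalisib in JVM2 and -0.42 to 0.65 for ibrutinib over fludarabine in JVM2. APOBEC3B ranged from -0.092 to 0.047 for ibrutinib in EHEB, APOBEC3D from -0.066 to 0.039 for fludarabine in MEC1 and from -0.011 to 0.090 for idelalisib over fludarabine in JVM2, APOBEC3F from -0.013 to 0.062 for fludarabine in MEC1, and APOBEC3H from -0.37 to 0.038 for idelalisib in MEC1 and from -0.15 to 0.047 for EHEB over JVM2 with DMSO. The cause of these changes was not tested. APOBEC3A held 0 to 152 counts per library.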
